A study of Homo sapiens with 6 samples.

Results

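Of the 58735 genes in the expression table, 8 were examined here as targets through which p53 slows the cell cycle: CDKN1A, BTG2, TP53INP1, SFN, PLK3, PHLDA3, CCNG1 and GDF15. They were taken by name, with symbols assigned to the gene identifiers by GENCODE version 29. The rule holds no measured value, but the targets were chosen with earlier results of these data known. All 8 passed the filter on low expression and were among the 16061 genes tested. RNA was sequenced from RKO, an established human colorectal carcinoma cell line, in 6 libraries. The Vector group of 3 libraries held RKO cells that the labels call negative control. The LOC_OE group of 3 libraries held RKO cells overexpressing LOC101927668, a long noncoding RNA. According to the study's methods, the stable lines were made by lentiviral transduction with the full-length transcript in a plenti6 vector, followed by selection with puromycin. Whether a line was 1 clone or a pool is not given in the sources used here. Both groups grew in DMEM with fetal bovine serum. The comparison asked which genes differ in RKO cells once LOC101927668 is overexpressed. The design calls the 3 libraries of a group biological replicates but does not say how the cultures were kept apart, so the p-values measure the spread between these libraries.

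The protein p53 is a transcription factor that binds a response element in DNA and switches on genes that stop cell division, repair DNA or start cell death. CDKN1A encodes p21, which binds and blocks the cyclin-dependent kinases. With these kinases blocked, RB-family proteins stay active and the DREAM complex keeps the genes of DNA replication and mitosis silent. RKO cells are widely used in p53 research because they keep a working p53 response.

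The p53 response element is a repeat of 2 segments of 10 bases each, and was searched with a spacer of 0 bases in the start windows of RefSeq genes, from 250 bases before to 50 bases after each annotated start on GRCh38.p14. A match kept the core C and G of both segments and had at most 3 mismatches to the consensus over 20 bases. The consensus reads the same on both strands, so 1 search covered both. Of 27305 gene symbols with a window, 373 held a match, which is 1.37%. Windows were found for 6 of the 8 targets, all but TP53INP1 and PHLDA3, and 1 of the 6 held a match. That gene was GDF15, whose match began 29 bases into the transcribed part. The GDF15 match, with 3 mismatches, is printed below with the nearest stretch of the CDKN1A window, which had 5 mismatches and so was no match, and with 3 of the matches among other p53 targets. These are DDB2 with 1 mismatch, and FAS and MDM2 with 2 mismatches each, a number that AEN shared. Capitals mark the 20 bases aligned to the element, and all 5 genes lie on the plus strand. A match is a string of letters and was not tested for binding, and windows without one say nothing about elements elsewhere in the gene.
GDF15, chr19:18386181-18386207: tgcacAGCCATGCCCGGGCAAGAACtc
CDKN1A, chr6:36678536-36678565: ccggcTGGCCTGCTGGAACTCGGCCaggct
DDB2, chr11:47214964-47214993: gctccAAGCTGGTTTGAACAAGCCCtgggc
FAS, chr10:88991304-88991333: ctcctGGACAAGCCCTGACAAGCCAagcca
MDM2, chr12:68808918-68808947: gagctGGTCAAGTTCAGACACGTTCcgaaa

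The libraries held between 15008842 and 18410231 reads on genes. LOC101927668 had 0 to 1 reads in the Vector libraries and 231 to 276 reads in the LOC_OE libraries, which matches the labels. The first LOC_OE library stood apart from the other two. Over all genes tested, its Pearson correlation with them on the log2(FPKM + 1) scale was 0.962 to 0.967, against 0.982 between those 2 libraries and 0.982 to 0.983 within Vector. Results that this library moved by over 1.5 times, or whose call it decided, are given with and without it. Of 9 colorectal epithelial markers, EPCAM, KRT8, KRT18 and CDX2 were expressed. CDH1, the cadherin of epithelial junctions, was listed at 0 in every library, and KRT19, KRT20, VIL1 and LGALS4 reached at most 0.262 FPKM. The summed level of 9 markers of leukocytes, fibroblasts and endothelium was 1.005 to 1.36 FPKM in Vector and 0.344 to 0.757 FPKM in LOC_OE, most of it CD68, with CD3E, LYZ and COL1A2 at 0 throughout. The part of these low levels in the results was not tested.

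Levels are given as FPKM, fragments scaled to gene length and to a size set by the authors for each library, which was not its read total. Differences are given as log2 fold changes of LOC_OE against Vector on the log2(FPKM + 1) scale. A gene was called when limma's test gave a Benjamini-Hochberg adjusted p under 0.05 over all genes tested and the fold change was at least 1.5. Of the 8 targets, 5 were called lower in LOC_OE (CDKN1A, BTG2, TP53INP1, PLK3 and PHLDA3), where 5.58% of all genes tested were called lower. None of the 8 was called higher in limma's test, against 4.63% of all genes, and the count was also 0 at an unadjusted p under 0.05 and with limma voom on the recovered reads. With array weights, which weight each library, GDF15 was called higher, at 0.80 with an adjusted p of 0.0116 in limma's test. That setting called 935 of 16061 genes higher. By the adjusted p alone, 6 of the 8 passed in the lower direction, the sixth being CCNG1, and 0 in the higher direction, where the shares of all genes were 9.74% and 10.7%. In these same 6 genes every LOC_OE library lay below every Vector library, as it did in 20.9% of all genes. The median log2 fold change of the 8 was -0.76, and that of all genes tested was 0.02. In bulk RNA, fewer cells expressing a gene and less RNA per cell cannot be told apart. Leaving out the first LOC_OE library gave 5 targets called lower, against 5.84% of all genes, and 1 called higher, GDF15. Leaving out the second Vector library gave 4 called lower, against 1.41% of all genes, because PLK3 lost its call.

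**Figure D1:**
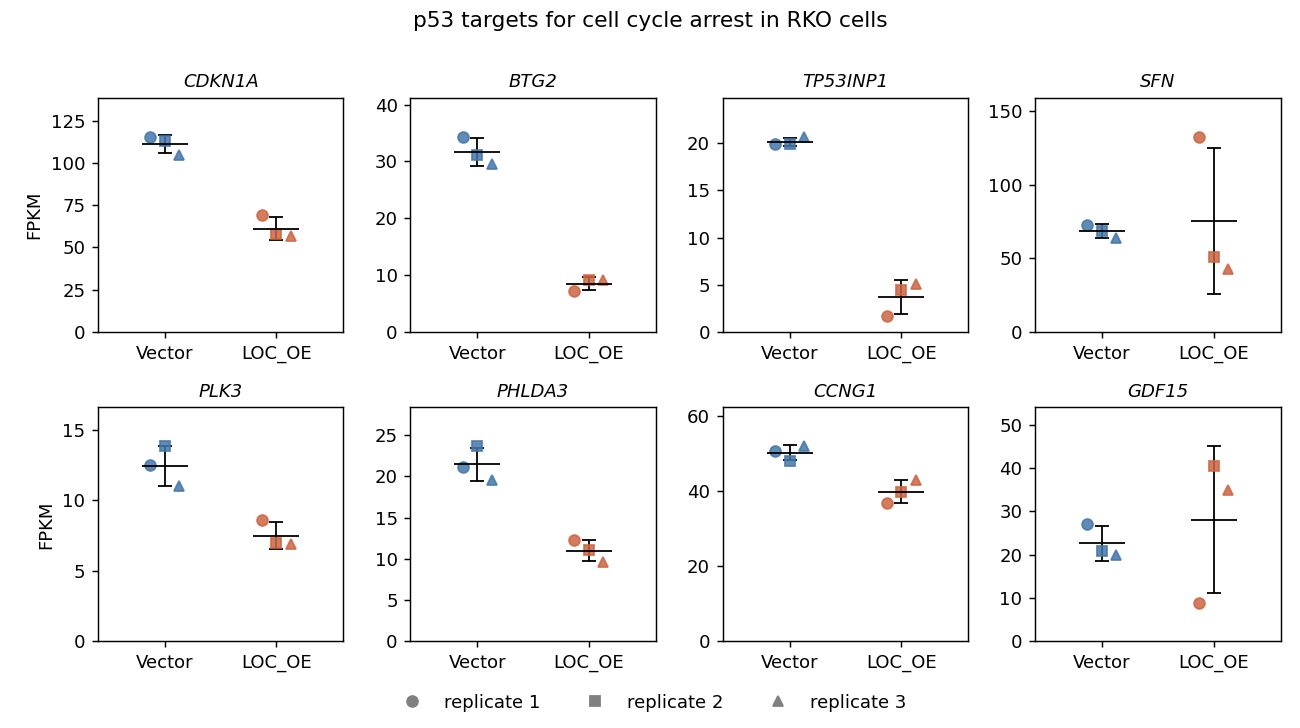
FPKM of each of the 8 p53 targets in each of the 3 Vector and 3 LOC_OE libraries, with a bar at the mean and an error bar of 1 SD. The groups are separate for CDKN1A, BTG2, TP53INP1, PLK3, PHLDA3 and CCNG1, whereas SFN and GDF15 spread widely within LOC_OE because the first LOC_OE library lies far from the others.

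CDKN1A, which encodes the kinase inhibitor p21, lies on chromosome 6 from 36676460 to 36687339 on the plus strand. Its level was 115, 113 and 105 FPKM in the Vector libraries and 69.0, 57.7 and 56.7 FPKM in the LOC_OE libraries. All LOC_OE libraries were lower than all Vector libraries, and the first LOC_OE library was the highest of its group. The mean went from 111 ± 5.37 to 61.1 ± 6.78 FPKM (SD, n = 3 each), a level 44.9% lower. The log2 fold change was -0.85 (SE 0.105) with an adjusted p of 0.00698 in limma's test. Its rank by mean level among all genes tested went from 236 to 641. The values rest on 5956 to 6597 reads per Vector library and 2543 to 3367 reads per LOC_OE library. CDKN1A was called in all 6 fits that left out 1 library, with a log2 fold change between -0.94 and -0.80. DINOL, a noncoding RNA transcribed from the opposite strand of this locus, was covered by 46, 28 and 32 reads in the Vector libraries, compared with 7, 12 and 5 in those of LOC_OE. It was looked at because it overlaps CDKN1A, with which it could share reads if strand was not used in counting.

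BTG2 showed a larger difference than CDKN1A. It encodes an antiproliferative protein of the BTG/TOB family, which recruits deadenylases to messenger RNA, and lies on chromosome 1 from 203305491 to 203309602. Its level was 34.3, 31.1 and 29.6 FPKM in Vector and 7.16, 9.23 and 9.18 FPKM in LOC_OE. Every LOC_OE library was far below the Vector range, and the first was the lowest. The mean fell from 31.6 ± 2.40 to 8.52 ± 1.18 FPKM (SD, n = 3 each), a 3.71-fold lower level. The log2 fold change was -1.78 (SE 0.118) with an adjusted p of 0.00242 in limma's test, and the call was kept in all 6 fits without 1 library. BTG2 moved from rank 1182 to rank 5646 among all genes tested.

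TP53INP1, a nuclear and autophagy protein that works in a loop with p53, had the largest difference of the 8. Its level was 19.95, 19.88 and 20.65 FPKM in Vector and 1.67, 4.48 and 5.06 FPKM in LOC_OE. The Vector libraries were nearly equal, and the first LOC_OE library lay well below the other two. The mean fell from 20.2 ± 0.424 to 3.74 ± 1.81 FPKM (SD, n = 3 each), a 5.39-fold lower level. The log2 fold change was -2.25 (SE 0.300) with an adjusted p of 0.00799 in limma's test. It lay between -2.47 and -1.88 over the 6 fits without 1 library, all of which called it. Without the first LOC_OE library it was -1.88, so the difference was smaller but did not rest on that library. NDUFAF6, which overlaps TP53INP1 on the opposite strand, was covered by 400 to 439 reads per Vector library and 424 to 639 per LOC_OE library.

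PHLDA3 encodes a small pleckstrin homology protein that keeps AKT from the membrane, and lies on chromosome 1 from 201464383 to 201469237 on the minus strand. It had 21.1, 23.6 and 19.6 FPKM in Vector and 12.2, 11.03 and 9.65 FPKM in LOC_OE. The groups did not overlap, and no library stood apart within its group. The mean fell from 21.4 ± 2.04 to 10.97 ± 1.296 FPKM (SD, n = 3 each), with a log2 fold change of -0.91 (SE 0.114) and an adjusted p of 0.00747 in limma's test. PHLDA3 kept its call in all 6 fits without 1 library.

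PLK3, a polo-like kinase of the stress response, lies on chromosome 1 from 44800225 to 44805990. Its level was 12.5, 13.8 and 11.02 FPKM in Vector and 8.62, 6.99 and 6.93 FPKM in LOC_OE. All LOC_OE libraries were below the lowest Vector library. The mean fell from 12.4 ± 1.41 to 7.51 ± 0.959 FPKM (SD, n = 3 each), with a log2 fold change of -0.66 (SE 0.120) and an adjusted p of 0.0162 in limma's test. This was the least firm of the 5 calls. It was kept in 2 of the 6 fits without 1 library. The adjusted p in limma's test was 0.0675, 0.0789 and 0.0519 without Vector library 1, 2 or 3, and 0.0529 without the second LOC_OE library.

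CCNG1 encodes cyclin G1, which lacks a clear kinase partner and feeds back on p53 through MDM2. It lies on chromosome 5 from 163437569 to 163446151. Its level was 50.7, 47.9 and 51.8 FPKM in Vector and 36.7, 39.6 and 42.8 FPKM in LOC_OE. The groups did not overlap, yet the gap was small. The mean was 50.1 ± 1.995 FPKM in Vector and 39.7 ± 3.07 FPKM in LOC_OE (SD, n = 3 each). The log2 fold change was -0.33 (SE 0.0888), below the fold threshold, with an adjusted p of 0.0443 in limma's test. The adjusted p stayed under 0.05 in 1 of the 6 fits without 1 library, at 0.0159 without the first LOC_OE library, and reached 0.160 without Vector library 3.

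SFN encodes 14-3-3σ, which holds CDC25 and cyclin B complexes in the cytoplasm, and lies on chromosome 1 from 26863138 to 26864457. Its level was 73.0, 68.7 and 63.7 FPKM in Vector and 132, 51.0 and 43.0 FPKM in LOC_OE. The first LOC_OE library was above all Vector libraries, and the other two were below all of them. The mean was 68.5 ± 4.62 FPKM in Vector and 75.5 ± 49.5 FPKM in LOC_OE (SD, n = 3 each). The log2 fold change was -0.04 (SE 0.400), with an adjusted p of 0.950 in limma's test, and its sign was opposite to that of the difference in mean FPKM. Without the first LOC_OE library it was -0.54 (SE 0.0919), with an adjusted p of 0.00840 in limma's test and a fold change still short of 1.5.

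GDF15, a secreted stress cytokine of the TGF-beta superfamily, lies on chromosome 19 from 18374731 to 18389176. Its level was 27.1, 20.8 and 19.8 FPKM in Vector and 8.74, 40.5 and 34.9 FPKM in LOC_OE. Here the first LOC_OE library was below all Vector libraries and the other two were above all of them, the reverse of SFN. The mean was 22.6 ± 3.95 FPKM in Vector and 28.0 ± 16.9 FPKM in LOC_OE (SD, n = 3 each). The log2 fold change was 0.06 (SE 0.536), with an adjusted p of 0.946 in limma's test. Without the first LOC_OE library it was 0.72 (SE 0.143), with an adjusted p of 0.0135 in limma's test, and GDF15 was called higher. The value of the first LOC_OE library rests on 292 reads, against 769 to 1354 reads in the other 5 libraries.

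**Figure D2:**
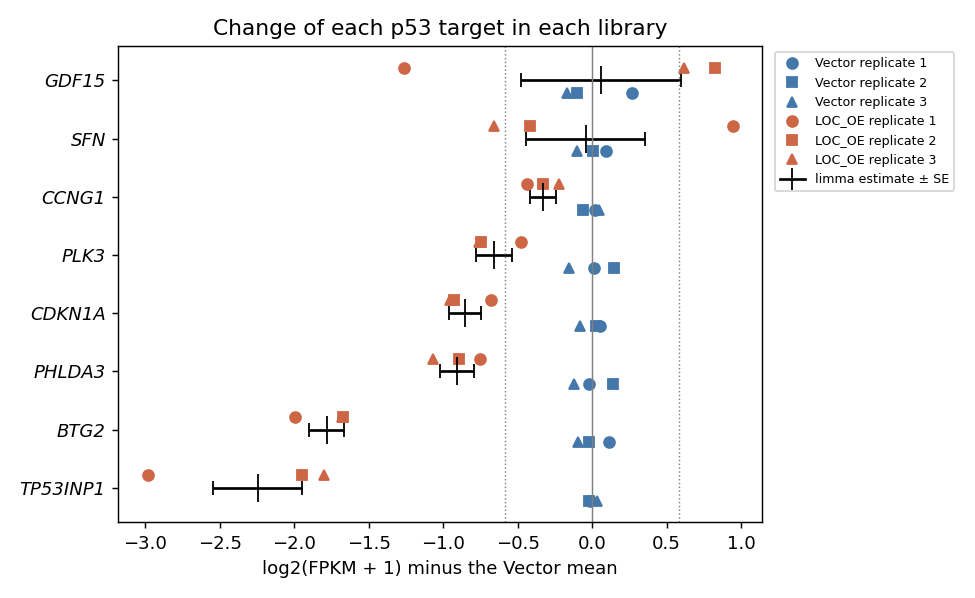
Each point is 1 library's log2(FPKM + 1) minus the Vector mean for 1 of the 8 p53 targets, with Vector and LOC_OE libraries in separate colours. TP53INP1 and BTG2 show the largest negative values, and the first LOC_OE library lies on the opposite side of 0 from the other LOC_OE libraries for SFN and GDF15.

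The order of the levels also differed between the groups. In Vector it ran CDKN1A, SFN, CCNG1 and BTG2, then PHLDA3, GDF15 and TP53INP1, whose ranges overlapped, and last PLK3. In LOC_OE, by the median of 3 libraries, it ran CDKN1A, SFN, CCNG1, GDF15, PHLDA3, BTG2, PLK3 and TP53INP1. By the mean of LOC_OE, SFN at 75.5 FPKM stood above CDKN1A at 61.1 FPKM, since the first LOC_OE library held 132 FPKM of SFN and 69.0 FPKM of CDKN1A. By the medians, BTG2 moved from place 4 to place 6, and TP53INP1 to place 8. Within LOC_OE the highest library exceeded the lowest 4.63-fold for GDF15, 3.08-fold for SFN and 3.03-fold for TP53INP1, but at most 1.29-fold for the other 5 targets.

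Among the 8 targets, the first LOC_OE library lay below both other LOC_OE libraries in 4 and above both in 4. GDF15 is also induced by ATF4 in the integrated stress response, the program that follows amino acid shortage or endoplasmic reticulum stress. Of 16 genes of that response, 13 were tested, and in all 13 the first LOC_OE library lay below both other LOC_OE libraries, as GDF15 did, against 39.4% of all genes tested. Their median deviation from the Vector mean was -0.34 log2 units in the first LOC_OE library and 0.67 and 0.83 in the others. ATF4, the transcription factor at the centre of the response, had 86.5, 83.2 and 81.7 FPKM in Vector and 140, 212 and 208 FPKM in LOC_OE. In the first LOC_OE library ATF4 thus lay above all Vector libraries, whereas GDF15 lay below all of them. The relation of GDF15 to ATF4 and to this response was not tested. ATF4 was the 1 gene of the 13 called higher, with a log2 fold change of 1.12 (SE 0.171) and an adjusted p of 0.0107 in limma's test. None of the 13 was called lower, also at an unadjusted p, against 1 with limma voom. Over all genes 4.63% were called higher and 5.58% lower. Without the first LOC_OE library 7 of the 13 were called higher, against 4.56% of all genes. Without any 1 of the Vector libraries none of the 13 was called higher, and the adjusted p of ATF4 in limma's test was then 0.0505 to 0.0622. Of all 16061 genes tested, 305, 144 and 199 were called higher without Vector library 1, 2 or 3, against 743 with all libraries. SESN2, which belongs to this list and to the p53 targets, had 63.8, 63.3 and 59.7 FPKM in Vector and 29.2, 84.2 and 83.1 FPKM in LOC_OE, and was chosen after its values were seen. Its log2 fold change was -0.07 (adjusted p of 0.911 in limma's test) with all libraries. Without the first LOC_OE library it was 0.42 (adjusted p of 0.00268 in limma's test), and SESN2 was called in neither fit.

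The 30 genes that p21 silences through the DREAM complex showed the opposite pattern. Of the list, 29 were tested, and in all 29 the first LOC_OE library lay above both other LOC_OE libraries, against 45% of all genes tested. Their median deviation from the Vector mean was 0.88 log2 units in the first LOC_OE library, and 0.08 and 0.10 in the others. Their median log2 fold change was 0.28. The calls were 1 higher, PLK4, and 1 lower, CDC25C, where 4.63% of all genes tested were called higher and 5.58% lower. Neither PLK4 nor CDC25C kept its call without any 1 of the Vector libraries. Of all 16061 genes tested, the fits without Vector library 1, 2 or 3 called 367, 227 and 275 lower and 305, 144 and 199 higher. With all libraries these counts were 896 and 743. For CCNB1, mitotic cyclin B1, the values were 38.5, 35.5 and 33.6 FPKM in Vector and 119, 41.6 and 42.8 FPKM in LOC_OE. Its log2 fold change was 0.72 with an adjusted p of 0.237 in limma's test, and it was not called. Without the first LOC_OE library it was 0.23 with an adjusted p of 0.0414 in limma's test, below the fold threshold. CCNB1 was chosen after its values were seen. CDKN1A itself was 69.0 FPKM in the first LOC_OE library, 57.7 and 56.7 FPKM in the other LOC_OE libraries and 105 to 115 FPKM in Vector. Its relation to the genes p21 silences was not tested, and p21 protein is not part of these data. Without the first LOC_OE library the median of the 29 genes was 0.10, with 1 called higher and 1 called lower. Over all genes the shares were then 4.56% higher and 5.84% lower. What sets that library apart was not tested.

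**Figure D3:**
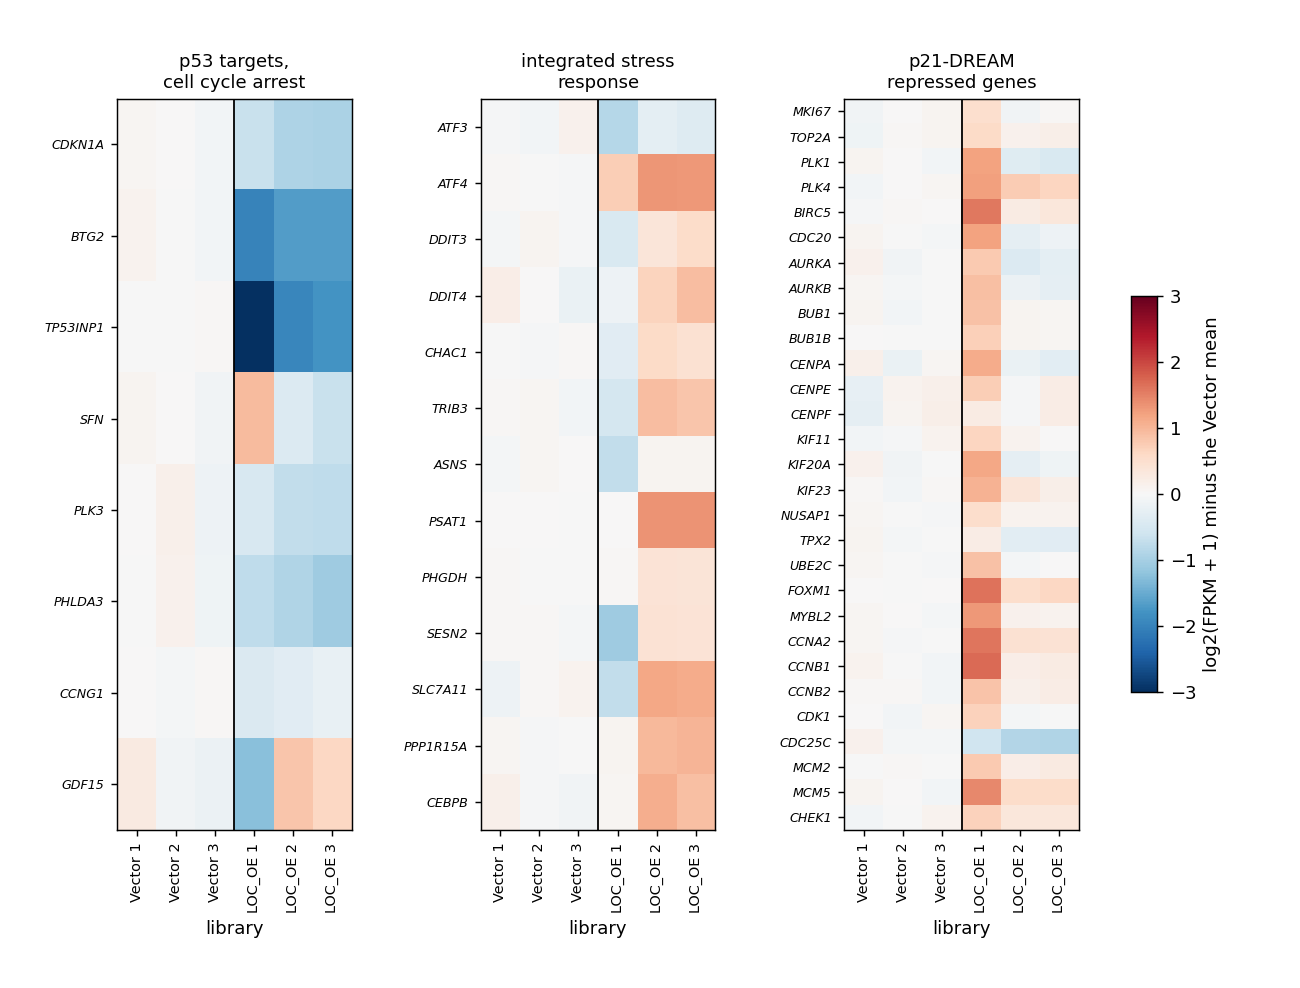
Heat map of log2(FPKM + 1) minus the Vector mean in each library (columns) for the 8 p53 targets, the 13 tested integrated stress response genes and the 29 tested genes silenced through p21 and DREAM (rows), on a colour scale from -3 to 3. The first LOC_OE library is lower than both other LOC_OE libraries in all 13 stress response genes and higher than both in all 29 DREAM genes.

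Cyclins, cyclin-dependent kinases and their partners are the machinery on which p21 and 14-3-3σ act. All 17 listed were tested, and 3 were called higher and 1 lower, with a median log2 fold change of 0.36. Over all genes 4.63% were called higher and 5.58% lower. CCNE2, cyclin E2, rose with a log2 fold change of 0.73 (SE 0.131) and an adjusted p of 0.0156 in limma's test. CDK2, its kinase partner, rose with a log2 fold change of 0.72 (SE 0.166, adjusted p of 0.0291 in limma's test). CDK4, the kinase of the D cyclins, rose with 0.69 (SE 0.135, adjusted p of 0.0196 in limma's test). CDC25C, the phosphatase that activates CDK1 at mitosis, had 6.77, 5.89 and 5.83 FPKM in Vector and 3.76, 2.88 and 2.81 FPKM in LOC_OE, with all LOC_OE libraries lower. Its log2 fold change was -0.79 (SE 0.117) with an adjusted p of 0.00991 in limma's test. The first LOC_OE library was above both other LOC_OE libraries in 16 of the 17 genes. Without it the median was 0.18, with CCNE2 the 1 gene called higher and CDC25C the 1 called lower. Over all genes the shares were then 4.56% higher and 5.84% lower. Without Vector library 1, 2 or 3, 0 of the 17 were called in either direction. Of all 16061 genes tested, these fits called 367, 227 and 275 lower and 305, 144 and 199 higher. With all 6 libraries the counts were 896 and 743.

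Each target was also set beside genes of its own family. Of 26 relatives, 21 were tested, 1 was called lower and 3 were called higher, with a median log2 fold change of 0.19. Over all genes the shares were 5.58% lower and 4.63% higher. Among the kinase inhibitors, CDKN1B, which encodes p27, had 12.9, 12.1 and 12.4 FPKM in Vector and 10.6, 12.3 and 10.9 FPKM in LOC_OE. Its groups overlapped, and its log2 fold change was -0.14 (SE 0.0843, adjusted p of 0.287 in limma's test). CDKN1C, which encodes p57, had a log2 fold change of -0.59 with an adjusted p of 0.170 in limma's test, and -0.28 without the first LOC_OE library. In the BTG/TOB family, the log2 fold change was -0.18 for BTG1, 0.08 for BTG3, 0.08 for TOB1 and 0.44 for TOB2, and none was called. BTG1 turned to 0.19 and BTG3 was 0.05 without the first LOC_OE library. TP53INP2, the only paralog of TP53INP1 in the list, was the relative that fell. It had 25.6, 23.7 and 23.8 FPKM in Vector and 8.98, 13.9 and 14.3 FPKM in LOC_OE, with a log2 fold change of -0.95 (SE 0.172) and an adjusted p of 0.0162 in limma's test. As in TP53INP1, the first LOC_OE library was the lowest. Its call was lost without any 1 of the Vector libraries, at an adjusted p of 0.0680 to 0.0734 in limma's test.

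Among the other 14-3-3 genes, YWHAZ rose, with a log2 fold change of 0.75 (SE 0.112, adjusted p of 0.0103 in limma's test), and so did YWHAE, with 0.66 (SE 0.138, adjusted p of 0.0235 in limma's test). The log2 fold changes of YWHAB, YWHAG, YWHAH and YWHAQ were 0.40, 0.55, 0.38 and 0.44, and none was called. Those of YWHAB, YWHAH and YWHAQ were 0.20, 0.20 and 0.19 without the first LOC_OE library, and that of YWHAG was 0.47. YWHAE was not called without the first LOC_OE library, where its fold change was under 1.5. PLK4, the polo-like kinase of centriole duplication, had 6.14, 6.60 and 6.91 FPKM in Vector and 16.8, 11.8 and 10.8 FPKM in LOC_OE. It rose, with a log2 fold change of 0.88 (SE 0.160) and an adjusted p of 0.0162 in limma's test, where PLK3 fell. PLK1, the mitotic kinase, had a log2 fold change of 0.13 with all libraries and -0.40 without the first LOC_OE library. PHLDA1, PHLDA2, CCNG2, CCNI, GDF11 and TGFB1 had log2 fold changes of 0.14, 0.63, -0.34, 0.30, 0.14 and 0.19, and none was called. CCNG2 was at -0.09 and TGFB1 at 0.0092 without the first LOC_OE library. BTG4, PLK2, PLK5, MSTN and INHBA did not pass the filter on low expression. Without Vector library 1 only YWHAZ of these 3 relatives kept its call. Without Vector library 2 or 3 none did, and the adjusted p of YWHAZ in limma's test was then 0.0645 and 0.0584. Of all 16061 genes tested, 305, 144 and 199 were called higher without Vector library 1, 2 or 3, against 743 with all libraries.

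**Figure D4:**
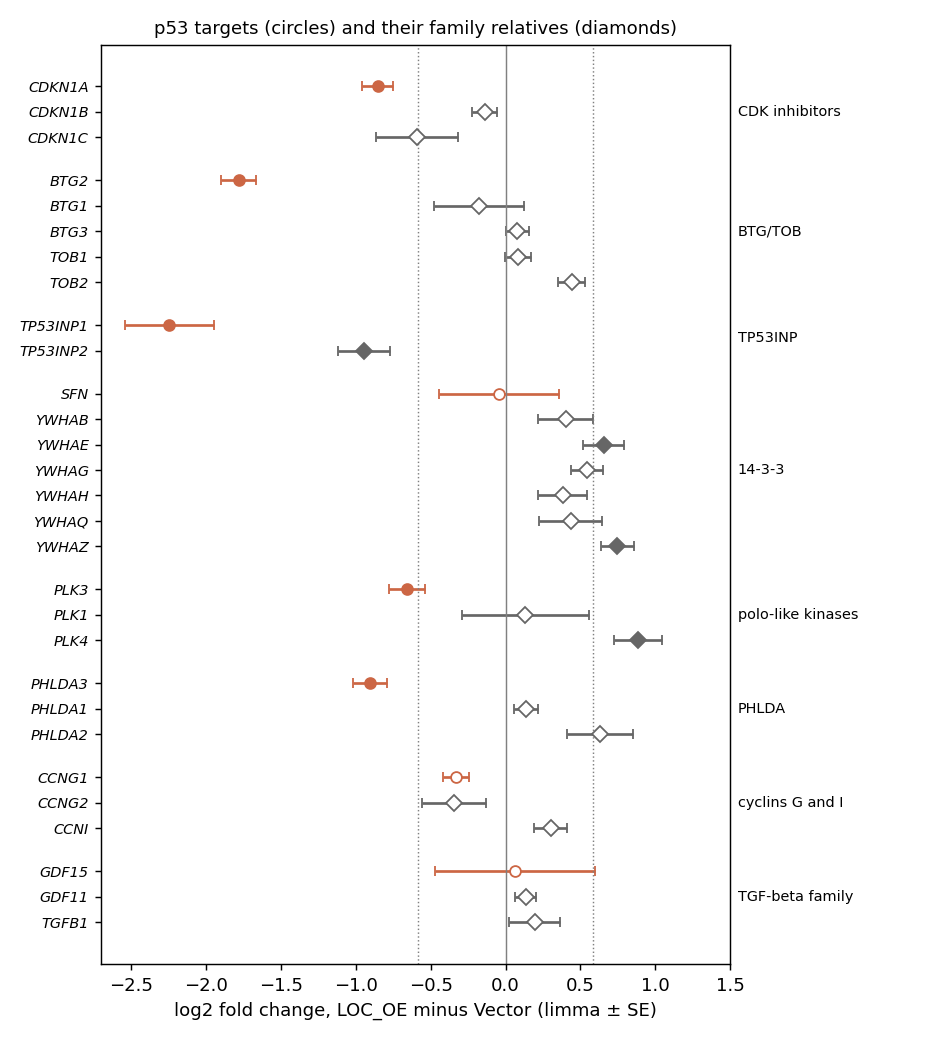
Log2 fold change of LOC_OE against Vector for the 8 p53 targets (circles) and their tested relatives, grouped by family, with error bars of 1 SE. BTG2 at -1.78 lies away from BTG1, BTG3, TOB1 and TOB2, which lie between -0.18 and 0.44 with BTG1 at 0.19 without the first LOC_OE library, whereas TP53INP1 and TP53INP2 both lie below 0.

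The ratio of each target to 1 relative was taken within each library, for 8 pairs chosen after the values were seen. The ratio of CDKN1A to CDKN1B went from 8.90 ± 0.406 in Vector to 5.47 ± 0.931 in LOC_OE (SD, n = 3 each). That of BTG2 to BTG1 went from 2.66 ± 0.225 to 0.855 ± 0.322, so the order of the pair turned in 2 of the 3 LOC_OE libraries. The ratios of TP53INP1 to TP53INP2, PLK3 to PLK4 and PHLDA3 to PHLDA1 also had groups that did not overlap. Among the relatives in these ratios, PLK4 was itself called higher and TP53INP2 was itself called lower with all libraries. For each of these 5 pairs a two-sided exact permutation test gave p = 0.10, the smallest that 3 against 3 libraries allow, and 0.16 after adjustment over the 8 pairs. For SFN to YWHAZ, CCNG1 to CCNG2 and GDF15 to GDF11 the groups overlapped.

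Beyond these 8, a list of 40 other p53 targets was examined, of which 36 were tested. In limma's test 14 were called lower and 0 higher, also 0 higher at an unadjusted p and with limma voom, with a median log2 fold change of -0.44. By the adjusted p alone, 20 passed in the lower and 1 in the higher direction, and in 24 every LOC_OE library was below every Vector library. Over all genes 5.58% were called lower, 9.74% passed by the adjusted p in the lower direction and 20.9% had LOC_OE below Vector throughout. On the log2(FPKM + 1) scale the largest falls were in CD82, BBC3 and FDXR. As a ratio of mean FPKM the order differs, since the pseudocount shrinks low genes: TRIM22, also called lower, had 0.680 FPKM in Vector and 0.0839 FPKM in LOC_OE, 8.11-fold lower, against 7.71-fold for CD82. CD82, a tetraspanin known as a metastasis suppressor, had 5.98, 7.29 and 5.95 FPKM in Vector and 0.971, 0.600 and 0.923 FPKM in LOC_OE. Its log2 fold change was -2.02 (SE 0.125) with an adjusted p of 0.00237 in limma's test. BBC3, the cell death gene that encodes PUMA, had a log2 fold change of -1.33 (SE 0.255, adjusted p of 0.0183 in limma's test), and FDXR, a mitochondrial ferredoxin reductase, had -1.18 (SE 0.171, adjusted p of 0.00956 in limma's test). Without the first LOC_OE library 16 were called lower, against 5.84% of all genes. Without Vector library 1, 2 or 3, 9, 7 and 8 were called lower, against 2.29%, 1.41% and 1.71% of all genes, and BBC3 was not among them, with an adjusted p of 0.0701 to 0.0790 in limma's test. FDXR lost its call without Vector library 2, at an adjusted p of 0.0585 in limma's test.

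Windows at the gene start were found for 31 of these 40 genes, and 8 held a match to the p53 response element: MDM2, PMAIP1, FAS, AEN, SESN1, DDB2, FDXR and RPS27L. Some of these are named for their match, after their values were seen. FAS, SESN1, DDB2 and FDXR were called lower. FAS, the death receptor, had 9.66, 9.97 and 9.88 FPKM in Vector and 4.96, 4.84 and 4.96 FPKM in LOC_OE, and DDB2, which recognises damaged DNA, had 19.2, 19.1 and 19.2 FPKM against 9.43, 8.33 and 8.70 FPKM. In both genes the libraries of a group were close to each other and the groups were well apart. MDM2, the ligase that degrades p53, had a log2 fold change of -0.51 (SE 0.0916, adjusted p of 0.0155 in limma's test), below the fold threshold. AEN and RPS27L were also below the fold threshold, at -0.53 and -0.33. Without the first LOC_OE library AEN was called lower, at -0.65 with an adjusted p of 0.000846 in limma's test. PMAIP1, the cell death gene that encodes NOXA, was the 1 gene of the list whose adjusted p passed in the higher direction, at 0.39 (SE 0.0955, adjusted p of 0.0363 in limma's test), and its fold change was short of 1.5. GDF15, the target of cell cycle arrest with a match, was itself not called with all 6 libraries.

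The genome around the targets was also examined. The targets BTG2, SFN, PLK3 and PHLDA3 lie on chromosome 1, where BTG2 and PHLDA3 are 1.84 Mb apart. Within 1 Mb of CDKN1A, 20 other genes were tested, of which 1 was called, in the lower direction, with a median log2 fold change of 0.07. The 23 genes tested within 1 Mb of BTG2 had a median of -0.07. Near TP53INP1, 1 of 19 was called lower and 3 higher. Near PHLDA3, 1 of 22 was called lower and 1 higher. Near PLK3, 4 of 42 were called lower and 2 higher. Near GDF15, 5 of 52 were called lower and 0 higher, and near SFN, 3 of 39 were called lower and 2 higher. Near BTG2 and CCNG1, with 23 and 3 genes tested, 0 were called in either direction. Over all genes 5.58% were called lower and 4.63% higher. The medians around the 8 targets lay between -0.09 and 0.31.

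The 5 genes whose profile over the 6 libraries lay closest to that of CDKN1A, by Euclidean distance of log2(FPKM + 1) centred on the Vector mean, were AL158206.1, DUSP1, PHLDB3, RNF113A and CDC25C. Their distances were 0.08, 0.14, 0.14, 0.15 and 0.15 log2 units, and their log2 fold changes lay between -0.86 and -0.79. Their likeness describes these libraries, in which the group difference is shared by many genes.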

How the data were processed

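The authors extracted total RNA with TRIzol and used the NEBNext Ultra kit for library preparation, with paired-end sequencing on a NovaSeq instrument. The submitters' processing notes name HISAT2 2.0.4, StringTie 1.3.0 and the build hg38, and the annotation is not given in the sources used here. The deposited table holds FPKM computed by the authors for 6 libraries, with 0 unused columns. All 58735 identifiers matched GENCODE version 29. Multiplied by merged exon length, 100% of values were whole reads within 0.1, and the recovered reads cover counting error only. The library size that the FPKM imply was 16010300 for the first LOC_OE library, which held 18410231 reads. For the second Vector library it was 18569300, with 17048823 reads. The scaling behind these sizes is not given in the sources used here. Rescaling by median-of-ratios gave 892 lower and 741 higher calls, against 896 and 743. It moved the log2 fold change of CDKN1A only from -0.85428 to -0.85424. The deposited values were thus already close to that scaling, and this alternative could change little. The strand is not stated, so overlapping and antisense genes can share reads.

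log2(FPKM + 1) was fitted in limma 3.58.1 (R 4.3.3) with a variance trend, for genes with at least 0.5 FPKM in at least 3 libraries, with Benjamini-Hochberg adjustment over 16061 genes. The steps were tested on simulated data. The text names all 8 targets, their tested relatives, up to 3 called genes with the largest rise and fall of each other list, and the 5 nearest profiles. The targets and lists were chosen with earlier results of these data known. Lists share genes. Exact permutation tests were two-sided. Replicate numbers were checked for pairing: same-numbered libraries correlated at 0.11, -0.03 and 0.12 in their deviations from the group means, not all over 0.1, so no block was used. Alternatives changed the pseudocount, filter, scaling, trend, library weights, block, thresholds or input (limma voom on recovered reads), or left out each library. Tables and plots used Python 3.11.15, pandas 2.3.3, scipy 1.17.1 and matplotlib 3.10.9.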

Additional observations from a re-analysis of the deposited data

How the results depend on the processing

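CDKN1A, BTG2, TP53INP1, PLK3 and PHLDA3 were called lower under every other pseudocount, filter, scaling, trend, weighting and input tried, and with the replicate block. The replicate block gave CDKN1A a log2 fold change of -0.85 (adjusted p of 0.0295 in limma's test) and changed no target's call, with 739 genes called lower and 696 higher against 896 and 743. Fold change of at least 2: CDKN1A at -0.85 was no longer called, 2 of the 8 targets and 4 other p53 targets were called lower, and relatives, cyclins and DREAM genes had 0 calls, by the construction of a stricter threshold. With no fold change threshold 1 other p53 target, 5 relatives and 2 DREAM genes were called higher, with 1712 called higher over all genes. With equal sums of FPKM the median of all genes shifted to -0.18 and the calls to 1795 lower and 259 higher. GDF15 was then -0.18, BTG3 -0.17, TOB1 -0.16, PLK1 -0.12, PHLDA1 -0.12, GDF11 -0.0914 and TGFB1 -0.0641, all turned in sign, and CCNG1 was called lower at -0.59, with 1 relative and 0 cyclins called higher and 1 stress response gene lower. With array weights 1 target, 1 cyclin or kinase and 7 stress response genes were called higher, BTG1 was 0.15 and PLK1 -0.33. An unadjusted p of 0.05 called 5 cyclins or kinases, 4 DREAM genes and 4 stress response genes higher. Over all genes 935 were called higher with array weights and 961 at the unadjusted p, against 743 in the main fit. A mean FPKM of at least 1 called 2 DREAM genes higher, and voom 3, with 1 stress response gene lower. With that mean FPKM filter 715 of 13216 genes were called higher. No filter called 650 genes lower and 507 higher, a fold change of at least 2 called 237 and 126, and voom 1339 and 1026.

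Leaving out 1 library gave CDKN1A -0.94 to -0.80, SFN -0.54 to 0.26, GDF15 -0.32 to 0.72, BTG1 -0.39 to 0.19 and PLK1 -0.40 to 0.42. The 8 targets then had 4 to 5 called lower and 0 to 1 higher, and other p53 targets 7 to 16 lower. Relatives had 0 to 1 lower and 0 to 4 higher, cyclins and kinases 0 to 1 lower and 0 to 3 higher, DREAM genes 0 to 1 in each direction, and stress response genes 0 to 7 higher. Over all genes, these 6 fits called between 227 and 938 of 16061 lower and between 144 and 747 higher. The fewest in both directions, 227 lower and 144 higher, were called without the second Vector library. Except for the stricter threshold, the cause was not tested. With 3 libraries a group, small differences such as that of CCNG1 stayed near the threshold.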

Other observations

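BTG2 and PLK3 are also known as immediate early genes, which respond within minutes to growth factors, so 16 other genes of that class were examined. All 16 were tested, 4 were called higher and 2 lower, and the median log2 fold change was -0.02. Over all genes 4.63% were called higher and 5.58% lower. FOS, a subunit of AP-1, had 1.63, 1.66 and 1.71 FPKM in Vector and 5.90, 4.53 and 6.35 FPKM in LOC_OE. Its log2 fold change was 1.29 (SE 0.123, adjusted p of 0.00422 in limma's test). EGR1, a zinc finger factor induced by growth factors, rose from 40.1 ± 4.18 to 92.6 ± 16.1 FPKM (SD, n = 3 each), a log2 fold change of 1.18 (adjusted p of 0.00747 in limma's test). EGR3 rose with a log2 fold change of 1.11. DUSP1, the phosphatase that switches off MAP kinases, and KLF6 were lower, with log2 fold changes of -0.79 and -0.78. FOS and EGR1 kept their calls in all 6 fits without 1 library. EGR3 and DUSP1 each lost the call without the second Vector library, both at an adjusted p of 0.0538 in limma's test. KLF6 lost it without any 1 of the Vector libraries, at an adjusted p of 0.0769 to 0.0839 in limma's test. By the adjusted p alone 4 of the 16 genes passed in each direction, where the shares of all genes were 9.74% lower and 10.7% higher. BTG2 and PLK3 lay on the side of DUSP1 and KLF6.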
